A study of Mus musculus with 36 samples.

Results

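Gene expression in the medial entorhinal cortex (MEC) was compared with that in the lateral entorhinal cortex (LEC) in 18 of the 36 RNA-seq libraries of a mouse study. The libraries were chosen by their tissue label: 9 came from MEC and 9 from LEC, and within each region there were 3 libraries of home cage mice, 3 of context-exposed mice (Context) and 3 of foot-shocked mice (Fear). All mice were wild-type BL-6 animals, housed singly and handled for 3 minutes a day over 5 days, with tissue taken 90 minutes after behaviour, so no group carries a mutation or a drug. The study's title concerns signalling from Cbln4 to Neo1 at synapses of the dentate gyrus. The sources used here do not say how the regions were dissected, whether animals were pooled or whether libraries with the same number came from 1 mouse. P-values therefore measure the spread between these libraries.

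The entorhinal cortex relays neocortical signals to the hippocampal formation. Layer 2 cells of both divisions send the perforant path to the dentate gyrus, MEC fibres to the middle and LEC fibres to the outer part of its molecular layer. MEC is known for grid, border and head-direction cells. LEC is known for responses to objects, odours and the passage of time. Cerebellins such as Cbln1 and Cbln4 are secreted members of the C1q family that link presynaptic neurexins to postsynaptic receptors, and Cbln4 also binds neogenin-1, the product of Neo1, and DCC.

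Proximal promoters of 4 genes, 2 higher and 2 lower in MEC, are shown because they stand for the sets described below: Cbln4, Vwc2l (a secreted protein with a von Willebrand factor C domain), Trh (thyrotropin-releasing hormone) and Htr2c (a serotonin receptor). They were chosen after their values were seen, among genes with a single RefSeq promoter entry. Each is the 250 bases before the gene's start in RefSeq (GRCm38.p6), printed 5′ to 3′ on the gene's own strand: chr2:172043467-172043716, minus strand, for Cbln4; chr1:70725465-70725714, plus strand, for Vwc2l; chr6:92244651-92244900, minus strand, for Trh; and chrX:146962263-146962512, plus strand, for Htr2c. Capitals mark AGGTCA on either strand (TGACCT where it lies on the other strand), the core site of nuclear receptors such as Nr2f2, and CANNTG, the E-box of basic helix-loop-helix factors such as Bhlhe22.
Cbln4: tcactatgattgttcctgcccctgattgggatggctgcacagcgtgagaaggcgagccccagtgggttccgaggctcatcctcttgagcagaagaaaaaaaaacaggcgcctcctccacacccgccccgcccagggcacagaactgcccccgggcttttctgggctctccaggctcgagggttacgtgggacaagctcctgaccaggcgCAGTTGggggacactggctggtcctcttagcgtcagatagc
Vwc2l: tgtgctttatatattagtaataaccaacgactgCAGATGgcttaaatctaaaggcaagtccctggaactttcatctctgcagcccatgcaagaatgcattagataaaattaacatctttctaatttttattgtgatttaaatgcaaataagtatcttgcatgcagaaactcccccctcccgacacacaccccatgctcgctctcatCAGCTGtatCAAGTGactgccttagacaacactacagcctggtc
Trh: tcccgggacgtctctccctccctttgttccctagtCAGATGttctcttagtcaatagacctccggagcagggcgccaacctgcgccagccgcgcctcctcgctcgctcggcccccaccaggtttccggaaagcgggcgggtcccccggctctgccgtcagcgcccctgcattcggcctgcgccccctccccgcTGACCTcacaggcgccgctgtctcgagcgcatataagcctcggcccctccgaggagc
Htr2c: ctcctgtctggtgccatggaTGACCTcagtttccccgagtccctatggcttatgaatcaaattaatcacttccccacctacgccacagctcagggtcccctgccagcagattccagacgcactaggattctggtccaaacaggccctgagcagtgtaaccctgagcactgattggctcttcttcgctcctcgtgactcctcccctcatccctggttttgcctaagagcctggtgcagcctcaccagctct
The promoters of Trh and Htr2c each held 1 AGGTCA, a motif found in 14% of all 32851 RefSeq promoter windows of this length. CANNTG occurred once in Cbln4, 3 times in Vwc2l and once in Trh, and is found in 66.2% of all windows. The AGGTCA and CANNTG matches did not overlap. They describe the letters only.

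Library totals ran over 25530671 to 68974340 counts in MEC and 21871412 to 43614062 counts in LEC. The first principal component of log2 CPM (read counts scaled to library size, here with TMM factors) held 26.8% of the variance and put the MEC libraries at 12.1 to 48.8 and the LEC libraries at -54.0 to -6.03. The LEC library nearest to MEC was LEC Fear 2. It was also the LEC library nearest to the MEC values in 16 of the 24 genes with the largest differences. On the second component LEC Home cage 3 lay at 51.7, far from LEC Home cage 1 at -43.2 and LEC Home cage 2 at -39.6. Without LEC Fear 2 the comparison called 3694 genes, against 3642 with it, and 169 of 173 named values kept their sign and their side of the threshold; Aif1, Pou3f1, Cdh6 and Grik2 lost their calls.

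Of 17011 genes tested with edgeR's quasi-likelihood model with condition as a covariate, 3642 (21.4%) differed between MEC and LEC at an adjusted p under 0.05. MEC was higher in 1763 of them (10.4% of the genes tested) and lower in 1879 (11%). Most differences were small, with a median absolute log2 difference of 0.495 among the called genes. A difference of at least 2-fold was found in 694 genes (4.08%), 306 higher (1.8%) and 388 lower (2.28%) in MEC. In 532 genes (3.13%) the 9 MEC and 9 LEC libraries did not overlap, with MEC above in 246 (1.45%) and below in 286 (1.68%).

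The 12 largest differences in each direction were taken among well-expressed genes without overlap between the regions that were also called in home cage libraries alone, so neither property is a finding about them. Cbln4 was measured at 78.6 to 119 CPM (median 89.5) in MEC and 7.1 to 28.4 CPM (median 13.6) in LEC. Its log2 difference was 2.69 ± 0.16 (SE; adjusted p = 5.49e-10). It was 3.03 in home cage, 2.69 in context and 2.33 in fear libraries, with the same sign in every condition. Cbln1, the cerebellin of cerebellar parallel fibres, was at 29.0 to 54.8 CPM (median 39.0) in MEC and 5.21 to 13.8 CPM (median 7.43) in LEC. Its log2 difference was 2.18 ± 0.17 (adjusted p = 1.85e-08).

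The other large MEC-higher genes included transcription factors, adhesion and matrix genes. Tshz2, a teashirt-family zinc finger factor, was at 137 to 202 CPM (median 155) in MEC and 17.0 to 49.2 CPM (median 22.9) in LEC, a log2 difference of 2.73 ± 0.16 (adjusted p = 5.49e-10). The highest LEC value came from LEC Home cage 1 and the other 8 LEC libraries were at 25.4 CPM or below. Dsc3, a desmosomal cadherin, was at 16.5 to 47.5 CPM (median 35.8) in MEC and 1.9 to 11.9 CPM (median 3.08) in LEC, a log2 difference of 3.13 ± 0.30 (adjusted p = 1.75e-07). Its highest LEC value was that of LEC Fear 2, and its log2 difference was 3.49 without that library. Satb1, a chromatin organizer, was at 229.7 to 339 CPM in MEC and 45.3 to 99.6 CPM in LEC. The remaining genes of this set were Nrep, Plch1 (a phospholipase C), Plxdc1, Cd44 (a hyaluronan receptor), Col5a1 (a fibrillar collagen chain), Rxfp1 (the relaxin receptor) and Vwc2l, with log2 differences of 1.71 to 2.48.

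**Figure D1:**
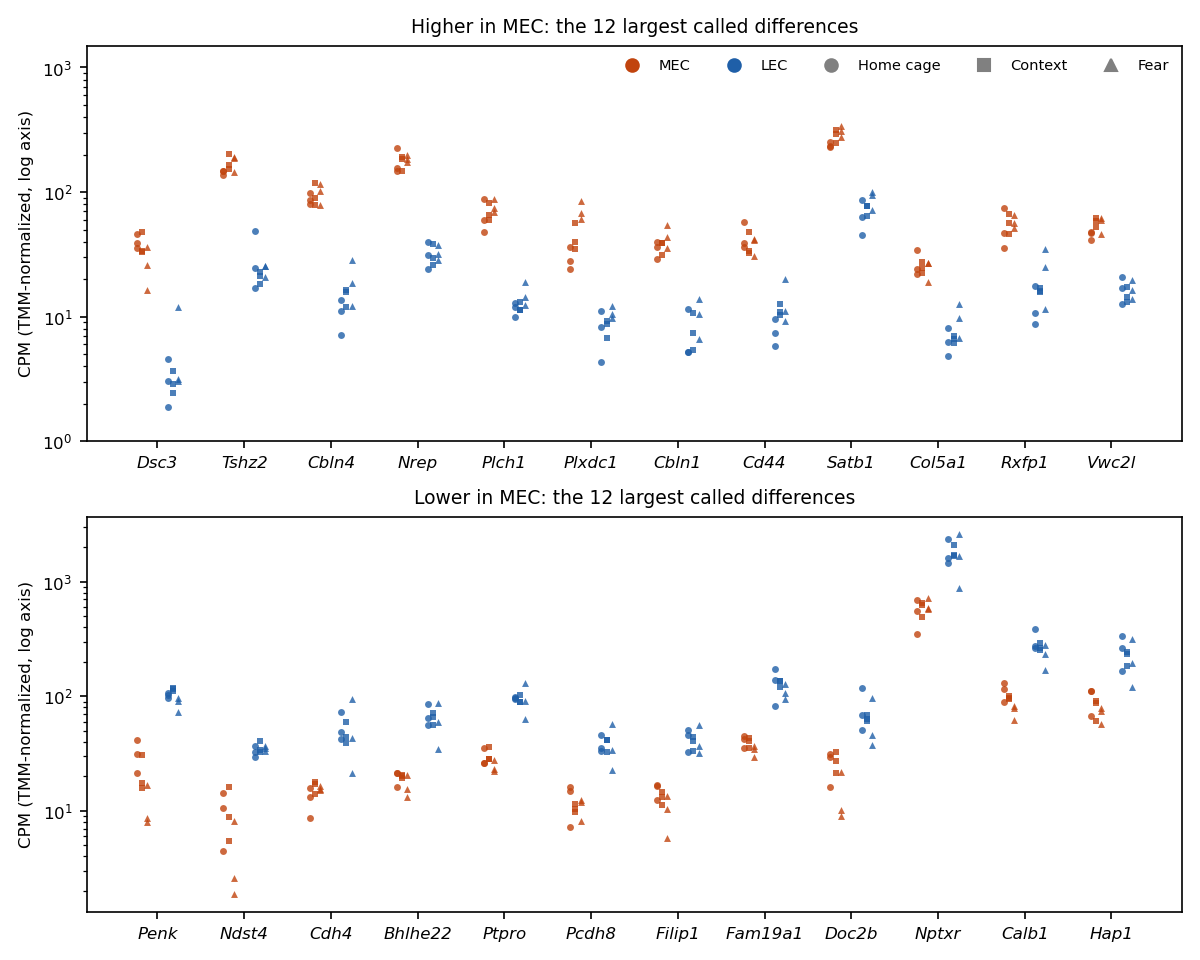
Level of each of the 24 genes with the largest called differences, as TMM-normalized CPM on a log axis, in the 9 MEC (red, left) and 9 LEC (blue, right) libraries; symbols mark the condition. Cbln4 lies at 78.6 to 119 CPM in MEC and 7.1 to 28.4 CPM in LEC, and Penk at 8.05 to 41.6 CPM in MEC and 73.0 to 118 CPM in LEC.

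The genes lowest in MEC relative to LEC included a neuropeptide, presynaptic and calcium-handling genes. Penk, the precursor of enkephalins, was at 8.05 to 41.6 CPM (median 17.4) in MEC and 73.0 to 118 CPM (median 102) in LEC. Its log2 difference was -2.35 ± 0.19 (adjusted p = 3.79e-08), and -1.71 in home cage, -2.44 in context and -2.96 in fear libraries. Nptxr, the neuronal pentraxin receptor that helps cluster AMPA receptors, was at 352 to 721 CPM (median 595) in MEC and 881 to 2581 CPM (median 1663) in LEC, a log2 difference of -1.61 ± 0.16 (adjusted p = 4.41e-07). Calb1, which encodes calbindin, a marker of layer 2 pyramidal cells, was at 62.4 to 130.3 CPM (median 94.2) in MEC and 170 to 389 CPM (median 265) in LEC, a log2 difference of -1.52 ± 0.10 (adjusted p = 1.54e-09). The other members were Ndst4 (a heparan sulfate sulfotransferase), Cdh4, Bhlhe22, Ptpro (a receptor tyrosine phosphatase), Pcdh8, Filip1, Fam19a1, Doc2b (a calcium sensor of exocytosis) and Hap1. Their log2 differences ran over -2.18 to -1.49.

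The differences were then measured in each condition on its own, in libraries not shared between conditions. In home cage libraries alone 205 of 16049 genes (1.28%) were called, 76 higher (0.474%) and 129 lower (0.804%) in MEC. In context libraries alone 1704 (10.7%) were called, 886 higher (5.54%) and 818 lower (5.12%) in MEC, and in fear libraries alone 2215 (13.9%), 1287 higher (8.05%) and 928 lower (5.8%). Of 3544 genes called over all libraries and tested in the home cage, 204 were also called there with the same sign. The sign was the same in 3523 (99.4%), though the home cage libraries are part of the larger fit. Among 596 genes called over all libraries with at least a 2-fold difference and tested in the home cage, 595 kept the sign and 468 were at least 2-fold there. The 205 home cage calls shared 190 genes with the context calls, 92.7% of the home cage list and 11.15% of the context list. With the fear calls they shared 136, 66.3% and 6.14% of each list. Across genes, which are not independent replicates, the log2 differences of home cage and context had r = 0.685 (15675 genes) and those of home cage and fear r = 0.525 (15671 genes). In all 3 conditions 134 genes were called with the same sign, 57 higher and 77 lower in MEC.

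The small home cage count moved with single libraries: it was 17 without LEC Home cage 2, 544 without LEC Home cage 3, 26 without MEC Home cage 1, 28 without MEC Home cage 2, 83 without MEC Home cage 3 and 229 without LEC Home cage 1. The context count was 1106 without MEC Context 2. The fear count was 667 without LEC Fear 1, 3779 without LEC Fear 3, 919 without MEC Fear 2 and 581 without MEC Fear 3. The spread between replicates was largest in the home cage, with a biological coefficient of variation of 0.246, against 0.130 in context and 0.150 in fear libraries.

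**Figure D2:**
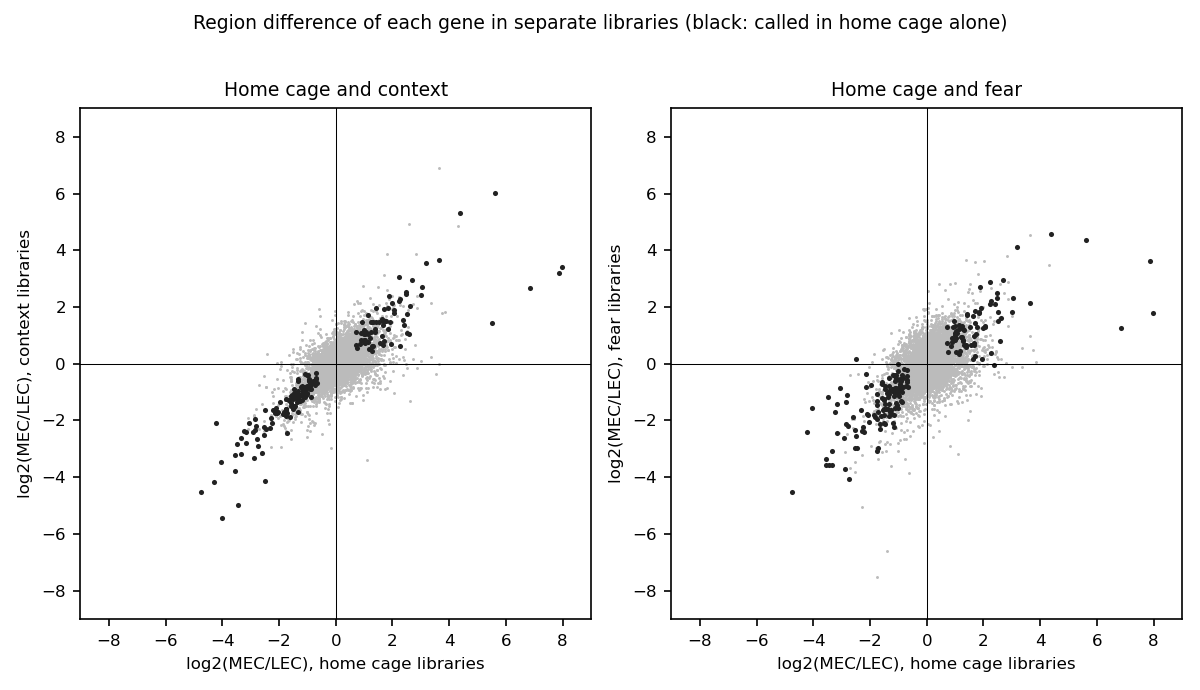
Log2 difference of each gene, MEC over LEC, in home cage libraries (horizontal) and in context (left) or fear (right) libraries (vertical); black points are the genes called in the home cage alone. The home cage calls lie in the same sign quadrants in 203 of 203 genes tested in context and in 197 of 200 tested in fear.

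Gene lists of function were read against the shares of all genes called, 10.4% higher and 11% lower in MEC. Among entorhinal driver and layer genes, 6 of 13 tested were higher (46.2%) and 3 lower (23.1%). Beside Cbln4, Cbln1 and Calb1, the higher genes were Lef1, Wfs1, Oxr1 and Trps1, and the lower ones Etv1 and Bcl11b. In home cage libraries alone Lef1, Wfs1, Etv1 and Bcl11b were not called (adjusted p = 0.107, 0.77, 0.231 and 0.368). The log2 difference of Wfs1 was 0.41 in home cage and 1.43 in fear libraries. Lef1, a Wnt-pathway factor, was at 4.15 to 11.7 CPM in MEC and 0.752 to 2.97 CPM in LEC, a log2 difference of 2.26 ± 0.22 (adjusted p = 2.82e-07). Reln, a marker of the layer 2 cells that project to the dentate gyrus, was at 131 to 422 CPM (median 292) in MEC and 129 to 423 CPM (median 271) in LEC, so the groups overlapped throughout and the log2 difference of 0.13 ± 0.15 did not pass (adjusted p = 0.606).

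**Figure D3:**
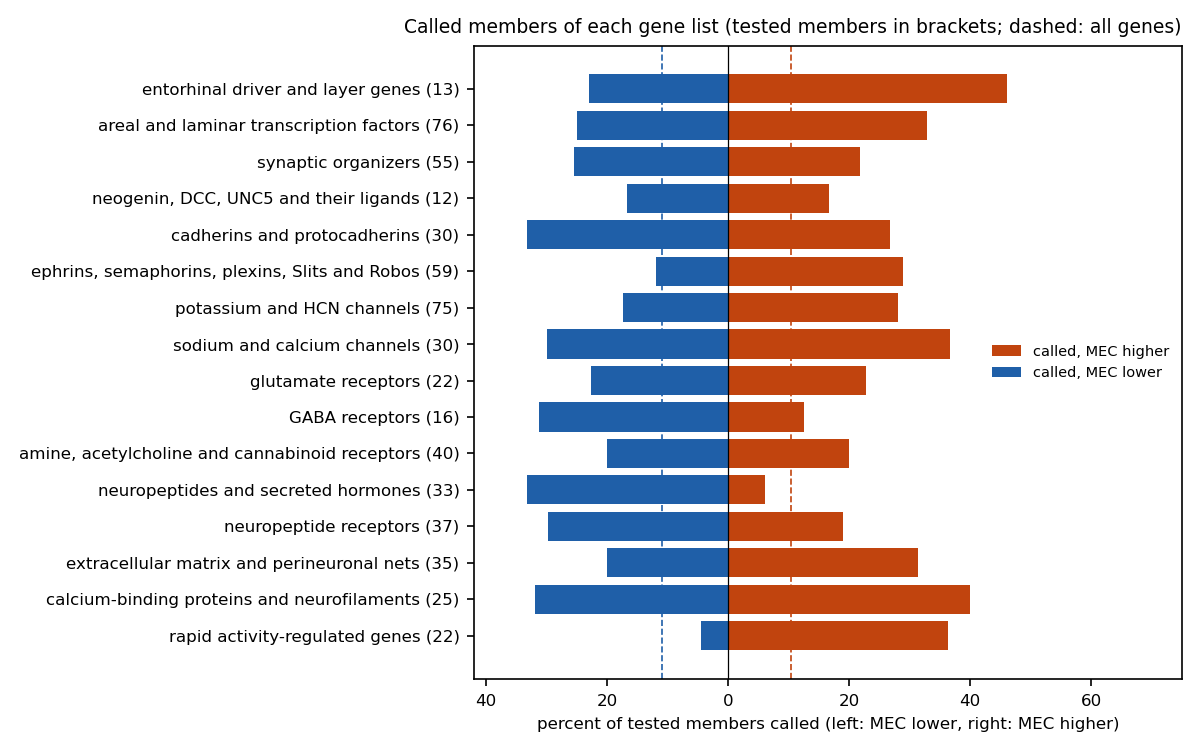
Share of tested genes in each functional list that were called higher in MEC (red, right) or lower in MEC (blue, left); dashed lines give the shares of all genes tested, 10.4% and 11%. Neuropeptides and secreted hormones had 6.06% of tested members higher and 33.3% lower.

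Of 76 areal and laminar transcription factors, 25 were higher (32.9%) and 19 lower (25%). On the MEC-higher side with Tshz2, Lef1 and Satb1 was Nr4a2, an orphan nuclear receptor, at 183 to 292 CPM in MEC and 39.9 to 109.7 CPM in LEC, a log2 difference of 1.69 ± 0.15 (adjusted p = 6.65e-08). Cux2, an upper-layer cortical factor, had a log2 difference of 0.95. On the LEC-higher side were Dach1 (-2.18 ± 0.25), Bhlhe22 (-1.79 ± 0.14), Tox3 (-1.32 ± 0.12) and Nr2f2 (-1.19 ± 0.12), the last an orphan nuclear receptor known for ordering caudal cortex. Nr2f2 was at 17.7 to 43.2 CPM in MEC and 41.5 to 83.3 CPM in LEC, so the groups overlapped slightly.

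Neo1, the receptor named in the study's title, was at 120.0 to 162 CPM (median 143) in MEC and 135 to 191 CPM (median 157) in LEC, and its log2 difference of -0.13 ± 0.06 did not pass (adjusted p = 0.109). The level of Neo1 in the dentate gyrus was not analysed here. Of 12 tested genes of neogenin, DCC, UNC5 and their ligands, 2 were higher (Ntn5 and Dcc) and 2 lower (Unc5d and Draxin), 16.7% each. Unc5d, a netrin receptor, was at 50.1 to 88.2 CPM in MEC and 124 to 187 CPM in LEC, without overlap, a log2 difference of -1.01 ± 0.12 (adjusted p = 2.31e-06). Dcc had a log2 difference of 0.50 ± 0.15 (adjusted p = 0.0164), and 0.10 in the home cage.

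Of 55 synaptic organizers, 12 were higher (21.8%) and 14 lower (25.5%) in MEC, with a list median of -0.04. The MEC-higher genes beside the cerebellins were led by Il1rapl2, at 10.03 to 15.8 CPM in MEC and 4.04 to 5.88 CPM in LEC, a log2 difference of 1.32 ± 0.10 (adjusted p = 7.08e-09). The LEC-higher genes included the pentraxin genes Nptxr, Nptx2 (-1.36 ± 0.26) and Nptx1 (-0.74). Nptx2, an activity-regulated pentraxin, was at 4.79 to 36.4 CPM in MEC and 16.4 to 46.9 CPM in LEC. C1ql3, which binds the adhesion receptor Adgrb3, lay between Nptx2 and Nptx1 at -0.96 ± 0.13 (adjusted p = 1.4e-05).

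Cadherins and protocadherins were divided, with 8 of 30 higher (26.7%) and 10 lower (33.3%). Cdh20 was at 37.5 to 55.8 CPM in MEC and 11.8 to 19.9 CPM in LEC, a log2 difference of 1.54 ± 0.09 (adjusted p = 5.49e-10). Cdh4 was at 8.66 to 17.8 CPM in MEC and 21.3 to 94.3 CPM in LEC, a log2 difference of -1.80 ± 0.21 (adjusted p = 2.19e-06). Of 59 ephrin, semaphorin, plexin, Slit and Robo genes, which guide axons, 17 were higher (28.8%) and 7 lower (11.9%), with a median of 0.21. Ephb1, Epha8, Robo3 and Sema3f had the largest MEC-higher differences, 1.02 to 1.33, while the ephrins Efnb1 and Efnb2 were lower at -0.65 and -0.63. Of 35 extracellular matrix genes, 11 were higher and 7 lower.

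Neuropeptides and secreted hormones were more often lower than higher in MEC: 11 of 33 tested (33.3%) were lower and 2 (6.06%) higher, with a median of -0.31. Trh, the releasing hormone for thyrotropin and also a cortical peptide, was at 0.688 to 2.3 CPM (median 1.05) in MEC and 0.312 to 60.8 CPM (median 24.2) in LEC. The 0.312 CPM was that of LEC Fear 2; the other 8 LEC libraries, from 8.32 CPM up, lay above all MEC libraries. The log2 difference was -4.60 ± 0.53 (adjusted p = 2.22e-06) and -4.77 without LEC Fear 2. Dlk1, a Notch-related secreted ligand, was at 0.248 to 8.92 CPM in MEC and 6.68 to 69.5 CPM in LEC, a log2 difference of -3.13 ± 0.36 (adjusted p = 2.34e-06). Penk, Cartpt, Adcyap1 and Npy also fell. Calca, which encodes calcitonin gene-related peptide, was higher at 2.93 to 5.25 CPM in MEC and 0.518 to 1.7 CPM in LEC, and so was Rspo2, a Wnt enhancer.

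Neuropeptide receptors went in both directions: 11 of 37 were lower in MEC (29.7%) and 7 were higher (18.9%). Npy2r, a receptor of neuropeptide Y, was at 3.09 to 5.0 CPM (median 3.87) in MEC and 7.55 to 45.0 CPM (median 22.9) in LEC, a log2 difference of -2.63 ± 0.24 (adjusted p = 1.09e-07) without overlap. Trhr, the TRH receptor, was at 5.71 to 24.5 CPM in MEC and 22.6 to 60.5 CPM in LEC, a log2 difference of -1.44 ± 0.19 (adjusted p = 1.45e-05). Tacr1, the substance P receptor, and Oprk1, the kappa opioid receptor, had log2 differences of -2.07 and -1.59. Hcrtr1, an orexin receptor, went the other way at 1.62 ± 0.22 (adjusted p = 1.87e-05). Oprd1, the delta opioid receptor, was also called higher in MEC.

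**Figure D4:**
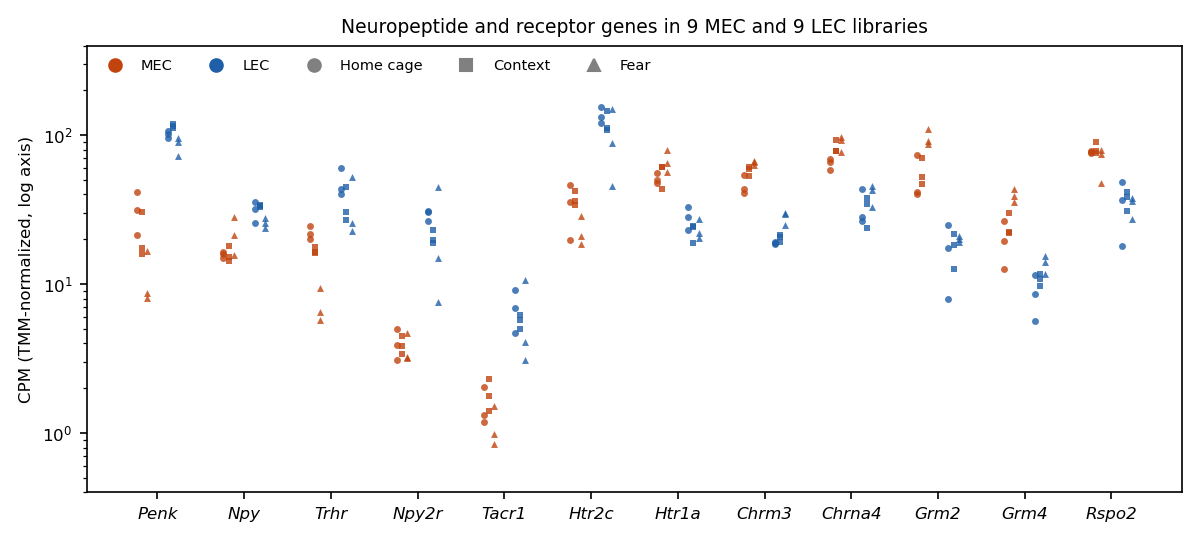
Level of neuropeptide, receptor and secreted ligand genes in TMM-normalized CPM on a log axis, in 9 MEC (red, left) and 9 LEC (blue, right) libraries; symbols mark the condition. Npy2r lies at 3.09 to 5.0 CPM in MEC and 7.55 to 45.0 CPM in LEC, and Chrm3 at 40.8 to 67.3 CPM in MEC and 18.7 to 29.9 CPM in LEC.

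Receptors for amines and acetylcholine were called equally often in both directions, 8 of 40 each (20%). Chrm3, a muscarinic receptor, was at 40.8 to 67.3 CPM (median 59.1) in MEC and 18.7 to 29.9 CPM (median 20.8) in LEC, a log2 difference of 1.33 ± 0.07 (adjusted p = 7.67e-11). Htr1a and Chrna4, an inhibitory serotonin receptor and a nicotinic subunit, had log2 differences of 1.24 and 1.16. Htr2c, an excitatory serotonin receptor, was at 18.7 to 46.4 CPM (median 33.8) in MEC and 45.8 to 154 CPM (median 122) in LEC, a log2 difference of -1.92 ± 0.18 (adjusted p = 1.87e-07). Glutamate receptors had 5 of 22 in each direction (22.7%). Grm2, a presynaptic metabotropic receptor, was at 40.1 to 109 CPM in MEC and 7.95 to 24.9 CPM in LEC (1.86 ± 0.18), while the AMPA subunits Gria1 and Gria3 were lower at -0.55 and -0.66. Grm2 was not called in home cage libraries alone. GABA receptors had 2 of 16 higher (12.5%) and 5 lower (31.2%).

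Of 75 potassium and HCN channel genes, 21 were higher (28%) and 13 lower (17.3%), and of 30 sodium and calcium channel genes 11 were higher and 9 lower. The median log2 difference of the potassium and HCN list was 0.09 over all libraries and -0.04 in the home cage, with 33 genes above 0 and 42 below. Kcns3, a modulatory potassium channel subunit, led with 1.45 ± 0.17 (adjusted p = 3.32e-06). It had 1.28 in home cage libraries alone and was not called there (adjusted p = 0.16). Kcnv1, another modulatory subunit, was lower at -0.96 ± 0.13 (adjusted p = 2.25e-05). Among calcium-binding proteins and neurofilaments, 10 of 25 were higher and 8 lower. Syt2, the calcium sensor of fast-spiking synapses, was at 19.2 to 92.1 CPM (median 48.3) in MEC and 3.16 to 11.9 CPM (median 5.44) in LEC, a log2 difference of 2.83 ± 0.28 (adjusted p = 2.97e-07). Syt2 was not called in home cage libraries alone, so it was not in the set of largest differences. Pvalb, which encodes parvalbumin, had 1.45 ± 0.22 (adjusted p = 6.43e-05), at 13.4 to 42.7 CPM in MEC and 6.67 to 17.6 CPM in LEC, with overlap. Its log2 difference was 0.76 in the home cage, where it was not called (adjusted p = 0.513), 1.32 in context and 2.27 in fear libraries. Calb2, which encodes calretinin, was lower at -0.998 ± 0.20 (adjusted p = 0.000835).

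The estimates of some genes varied between conditions, in either direction, but no dependence on condition passed the test across all genes. Scn4b, a sodium channel beta subunit, was at 6.33, 7.77 and 7.2 CPM in MEC and 3.3, 7.61 and 4.96 CPM in LEC of home cage mice. In fear libraries it was at 31.7, 47.5 and 54.9 CPM in MEC and 7.05, 5.33 and 6.88 CPM in LEC. Its log2 difference was 0.42 in the home cage, 1.72 in context and 2.80 in fear libraries. Nefh, the heavy neurofilament chain, had 0.15, 0.87 and 1.53 in the same order. Nptx2 went the other way, at -2.14, -1.64 and -0.35, and so did Npy, at -0.998, -1.08 and -0.25; neither was called in fear libraries alone (adjusted p = 0.556 for Nptx2 and 0.393 for Npy). The interaction of region and condition had unadjusted p of 2.2e-05 for Scn4b and 4e-05 for Nefh, and adjusted p of 0.188 and 0.226. For Nptx2 and Npy the unadjusted p were 0.0054 and 0.0052, and the adjusted p 0.874 for both. No gene passed that test (0%; 817 genes, 4.8%, had an unadjusted p under 0.05, and DESeq2 called 18). Of 22 rapid activity-regulated genes, 8 were higher (36.4%) and 1 lower (4.55%) in MEC; Arc had a log2 difference of 0.91 ± 0.24 (adjusted p = 0.00885) over all libraries, and 0.32 in the home cage.

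Cell type marker lists were read against the same shares of all genes, 10.4% higher and 11% lower in MEC. All 9 oligodendrocyte markers were higher in MEC, with a median log2 difference of 0.89; their summed level was 1649 to 3492 CPM (median 2518) in MEC and 1217 to 1839 CPM (median 1339) in LEC, and no marker was at 0. In the home cage the median was 0.42, and all 9 were above 0 there. The summed levels of the home cage libraries overlapped, at 1649 to 2409 CPM in MEC and 1228 to 1839 CPM in LEC. In bulk tissue, fewer cells of a type and less RNA per cell cannot be told apart. The mean log2 CPM of the 9 oligodendrocyte markers, in which each marker weighs the same, was then added to the model. With it the calls numbered 480 rather than 3642. Over the 3642 genes the median absolute log2 difference was 0.397 and the median SE 0.198 against 0.107, and 3489 (95.8%) kept their sign. Cbln4 (2.97; adjusted p = 2.57e-05), Npy2r (-2.92), Trh (-5.18) and Syt2 (1.45) kept their calls, while Scn4b (0.50; adjusted p = 0.58), Pvalb (0.07; adjusted p = 0.89) and Nefh (0.02; adjusted p = 0.973) did not. Of the 24 largest differences, Ndst4 (-0.91; adjusted p = 0.199) and Doc2b (-1.37; adjusted p = 0.0606) lost their calls. So did Trhr (-0.70; adjusted p = 0.282) and, among the other genes mentioned that were named by rule, Aif1, Arc, Bcl11b, C1ql3, Calb2, Calca, Cdh6, Cyp26b1, Dcc, Efnb1, Efnb2, Epha8, Etv1, Gria1, Gria3, Grik2, Hcrtr1, Kcns3, Kcnv1, Ly6g6e, Lypd1, Oprd1, Oprk1, Pou3f1, Robo3, Slc17a6, Unc5d and Wfs1.

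Of 9 microglial markers 5 were lower, and of 9 meningeal and mural markers 5 were higher, such as Col1a2 (0.94 ± 0.17; adjusted p = 0.000414). Astrocyte markers had 2 of 8 lower (25%), and endothelial markers 1 of 8 higher (12.5%), near the share of all genes. Markers of neighbouring tissue differed too, and their part in the results was not tested. Subiculum markers had 3 of 5 higher, with a summed level of 186 to 292 CPM in MEC and 87.8 to 182 CPM in LEC; the 3 were Ly6g6e, Fn1 and Slc17a6. CA1 markers had 5 of 6 higher and thalamus markers 3 of 5. Amygdala markers had 4 of 7 lower, among them Dlk1, Cyp26b1 and Lypd1, and 2 higher, with a summed level of 224 to 267 CPM in MEC and 163 to 422 CPM in LEC. The highest LEC amygdala sum was in LEC Fear 3 and the lowest in LEC Fear 2. Dentate granule cell and striatum markers each had 3 of 8 lower and none higher. Claustrum markers had 3 of 6 lower and 1 higher (Nr4a2), and their summed level was 380.1 to 486 CPM (median 438) in MEC and 278 to 381 CPM (median 309) in LEC. Nr4a2 alone made up a large part of the MEC sum, with a mean of 238 CPM in MEC and 74.3 CPM in LEC. Interneuron markers had 2 of 14 in each direction (14.3%), also near the share of all genes, and no blood marker of 5 was called. Of 13 mitochondrially encoded genes, 5 were lower, with a median of -0.40.

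**Figure D5:**
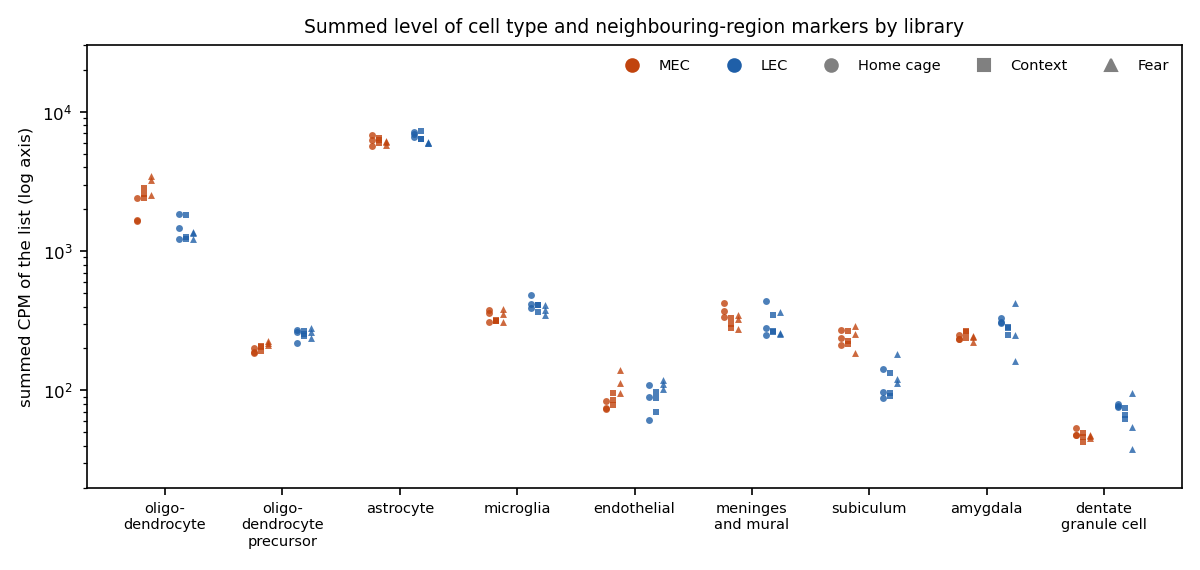
Summed level of marker lists in each library, in CPM on a log axis, for MEC (red, left) and LEC (blue, right); symbols mark the condition. Oligodendrocyte markers lie at 1649 to 3492 CPM in MEC and 1217 to 1839 CPM in LEC, and subiculum markers at 186 to 292 CPM in MEC and 87.8 to 182 CPM in LEC.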

How the data were processed

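Whole-number read counts per gene were deposited by the authors for 36 polyA libraries (TRIzol extraction, TruSeq Stranded mRNA kit, per the labels' protocols); the values are raw counts. The submitters' processing notes name Trimmomatic 0.33, STAR 2.7.10b, HTSeq 2.0.1 and the build mm10. No source used here gives their settings, the annotation release or the strand setting, so overlapping or antisense genes are uncertain.

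Of 37315 genes in the table, with 0 lines naming no gene, 35533 (95.2%) had a symbol in GENCODE M21. The 18 entorhinal libraries were filtered (filterByExpr), normalized (TMM) and tested with edgeR (robust quasi-likelihood), region with condition as a covariate (14 residual degrees of freedom), and calls were made at a Benjamini-Hochberg adjusted p under 0.05 over all genes. Each condition was also fitted alone (4 residual degrees of freedom), and the region by condition interaction was tested. CPM values are TMM-normalized, with standard errors on the log2 scale. On simulated data of 17011 genes, 100 genes were changed 2-fold and 100 by 2 on the log2 scale, none of them from the lowest expressed. Of these, 97% and 100% were called, and 4.4% of calls were false. Counts were drawn independently for each gene, without condition effects or shared shifts in cell make-up. The rates hold for that setting only.

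The libraries, genes and lists were chosen with earlier results of these data known. Genes were named by rule: the 12 largest differences in each direction (mean of at least 4 log2 CPM, no overlap, called in the home cage), up to 4 per direction in each functional list (mean of at least 1 log2 CPM), up to 3 per cell type list, and Cbln4 and Neo1; others mentioned were chosen after their values were seen. Alternatives were other size factors, no filter, DESeq2, all 36 libraries, marker covariates, a replicate block and leaving out each library. Software was edgeR 4.0.16 with limma 3.58.1 in R 4.3.3, DESeq2 1.42.0, and pandas 2.3.3, numpy 2.4.6 and matplotlib 3.10.9 in Python 3.11.15.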

Additional observations from a re-analysis of the deposited data

Results flagged for a closer look

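Among the 24 genes with the largest differences, tested in 2 regions each (48 groups of 9 libraries), 5 groups held a library far from the other 8; chance flags about 1 in 20 groups. Dsc3 was at 11.9 CPM in LEC Fear 2, against 1.9 to 4.59 CPM in the other LEC libraries. Bhlhe22 was at 34.3 CPM in LEC Fear 2, against 55.6 to 87.4 CPM in the others. Tshz2 was at 49.2 CPM in LEC Home cage 1, against 17.0 to 25.4 CPM in the others. Cdh4 was at 8.66 CPM in MEC Home cage 1, against 13.2 to 17.8 CPM in the other MEC libraries. Filip1 was at 5.82 CPM in MEC Fear 2, against 10.4 to 16.7 CPM in the others. In each case the 9 MEC and 9 LEC libraries still did not overlap, which the choice of these genes required.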

How the results depend on the processing

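The count over all conditions, 3642, was 3605 with RLE size factors, 3226 with no filter, 4182 with DESeq2, 3109 with all 36 libraries, 2853 with a meninges, choroid plexus and blood marker covariate, 3214 without the condition term, 480 with the oligodendrocyte covariate and 694 when a 2-fold difference was also required. Leaving out each library gave 3082 to 4177. With context and fear libraries only, an alternative chosen after seeing the data, it was 3697. The share of calls higher in MEC was 44.1% to 56.5% across alternatives. The home cage count of 205 was 391 with no filter, 647 with DESeq2 and 17 to 544 when each library was left out. The context count was 1106 to 1663 and the fear count 581 to 3779 when each library was left out. The interaction count of 0 was 4 with no filter, 18 with DESeq2 and 0 to 6 when each library was left out. The cause of these shifts was not tested.

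With the oligodendrocyte covariate, signs turned for Mag (-0.00055), Opalin (-0.1318), Aldh1l1 (-0.06514), Ttr (3.65), Folr1 (0.3686), Pou3f1 (-0.1326), Drd1 (0.05049), Grik2 (0.2095) and Neo1 (0.04361); Ttr also turned without the condition term (0.1459). Of the 163 named genes called, 95 kept their sign but lost their call with that covariate, and 63 kept both. The other 5 turned sign and were not called either. Under every other alternative 143 kept sign and call. The 20 that did not were Adamts5, Aif1, Cdh1, Cdh5, Cdh6, Clic6, Dcc, Drd1, Foxp2, Glis3, Grik2, Htr1b, Jun, Kcnh4, Ogn, Pou3f1, S100b, Tacr3, Tyrobp and Vip.

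Whether replicate numbers pair libraries was not settled. Same-numbered MEC and LEC libraries had deviations correlated at -0.187, 0.013 and -0.32 in home cage. The values were 0.228, 0.091 and 0.182 in context and 0.086, -0.015 and 0.08 in fear. Differently numbered libraries had -0.116 to 0.268 in home cage, -0.18 to 0.043 in context and -0.101 to 0.047 in fear. Only in context did every same-numbered value lie above every differently numbered one. With the replicate block, 3037 genes were called over all conditions, 64 in home cage alone, 4024 in context alone and 2177 in fear alone.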
